A study of Mus musculus with 36 samples.

Results

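The Akr1c cluster is a row of related aldo-keto reductase genes on mouse chromosome 13. The cluster was chosen by the measured rise of Akr1c13 on loss of Pogz and by the sequence that Akr1c13 shares with Akr1c12, and the other genes were then taken by name, whatever their values. They are the 8 Akr1c genes Akr1c14, Akr1c18, Akr1c13, Akr1c19, Akr1c12, Akr1c6, Akr1c20 and Akr1c21, in order of position, and their neighbour Akr1e1, 9 of the 24421 genes listed. The 8 Akr1c genes spanned 527 kb (GRCm38, chr13:4059591-4586543). Marcksl1-ps4, a pseudogene between Akr1c19 and Akr1c12, was the only other gene listed inside the row. No member's span overlapped that of another member.

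RNA-seq was carried out on the hippocampus and the cerebellum of 18 adult C57Bl/6 mice, to ask how gene expression in the brain depends on the number of intact Pogz alleles. The control animals carried 2 floxed Pogz alleles without Cre (Pogzfl/fl), the Pogz cKO+/- animals carried Nestin-Cre with 1 floxed allele (NesCre/+; Pogzfl/+), and the Pogz cKO-/- animals carried Nestin-Cre with 2 floxed alleles (NesCre/+; Pogzfl/fl). Each genotype had 6 animals, 3 males and 3 females, and both tissues came from the same animals. Nestin-Cre acts in neural progenitors, so cells of other origin in the tissue, such as vessel and meningeal cells, can keep Pogz. The control animals carried no Cre, so between them and the cKO groups Cre and the loss of Pogz cannot be told apart, whereas cKO+/- and cKO-/- both carried it. In whole tissue, more cells of one type and more RNA per cell cannot be told apart either.

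The 36 libraries held 17609321 to 45544188 counts. Levels are given in CPM, that is counts scaled to the size of the library, with TMM factors estimated within each tissue. The hippocampal library of cKO-/- Sample_1160 stood apart: its median correlation with the other libraries of its group was 0.881, against 0.985 to 0.994 for the other 17 hippocampal libraries. The hippocampal fits therefore rest on 17 libraries, although the filter on low counts and the scaling used all 18, and the result of all 18 is given beside a result where it changes a call or moves a value by over 1.5 times. Pogz itself served as a check of the genotypes, although its counts also include exons outside the deleted part. In the hippocampus its level fell from 90.9 ± 1.24 CPM in control (SD, n = 6) to 76.4 ± 2.27 in cKO+/- (n = 6) and 61.7 ± 3.55 in cKO-/- (n = 5), and in the cerebellum from 99.6 ± 15.2 to 77.7 ± 5.78 and 65.8 ± 7.34 (n = 6 each). Control and cKO-/- libraries did not overlap in either tissue.

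Aldo-keto reductases use NADPH or NADH to reduce aldehydes and ketones to alcohols. Mouse Akr1c enzymes act largely as hydroxysteroid dehydrogenases, which interconvert active and inactive steroids, and they are best known from liver, kidney, gonads and gut. In the brain, the best known reaction of the family is the step that makes allopregnanolone, a positive modulator of GABA-A receptors, from a reduced form of progesterone.

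The members' coding sequences were compared first, because near-identical genes can take each other's reads. Akr1c13 and Akr1c12 shared 96.2% of aligned coding bases (37 of 972 differed), more than any other pair of members. Akr1c6 and Akr1c20 came next with 92.3%, and Akr1c13 and Akr1c19 shared 77.8% (216 of 972 differed). Akr1e1 was the most distant, with 59.9% to 63.1% identity to the other members. The stretch from base 343 to base 402 of the coding sequence, counted from the A of the start codon, shows how the 3 genes differ where Akr1c13 and Akr1c12 are least alike. Capitals mark the bases that differ from Akr1c13, 9 in Akr1c12 and 14 in Akr1c19.
Akr1c13: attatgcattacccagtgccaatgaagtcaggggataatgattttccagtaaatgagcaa
Akr1c12: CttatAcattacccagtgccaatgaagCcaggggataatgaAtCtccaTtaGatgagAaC
Akr1c19: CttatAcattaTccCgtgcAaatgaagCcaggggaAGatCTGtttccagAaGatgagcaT

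A single read end can be assigned to a gene only where its sequence is found in no other gene. The reads were paired, and the other end of a pair may still tell 2 genes apart. The windows below take 1 end at a time and leave this out. Of the 1183 windows of 43 bases in the Akr1c13 transcript, the length of 1 read end, 396 (33.5%) were also found in Akr1c12 and none in another gene's protein-coding transcript. For Akr1c12 the shared windows were 396 of 1223 (32.4%). The longest run of coding sequence shared by Akr1c13 and Akr1c12 was 228 bases, against 34 bases for Akr1c13 and Akr1c19. Akr1c19, Akr1c21 and Akr1e1 had no 43-base window in common with another gene's protein-coding transcript, and Akr1c6 and Akr1c20 shared 49 windows. Counts of Akr1c13 and Akr1c12 are thus uncertain as far as the 2 genes share sequence. A count of Akr1c19 did not come from a perfect match to another gene's annotated protein-coding transcript. Pseudogenes, non-coding genes and the rest of the genome were not searched. How reads with several matches were counted is not stated.

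**Figure D1:**
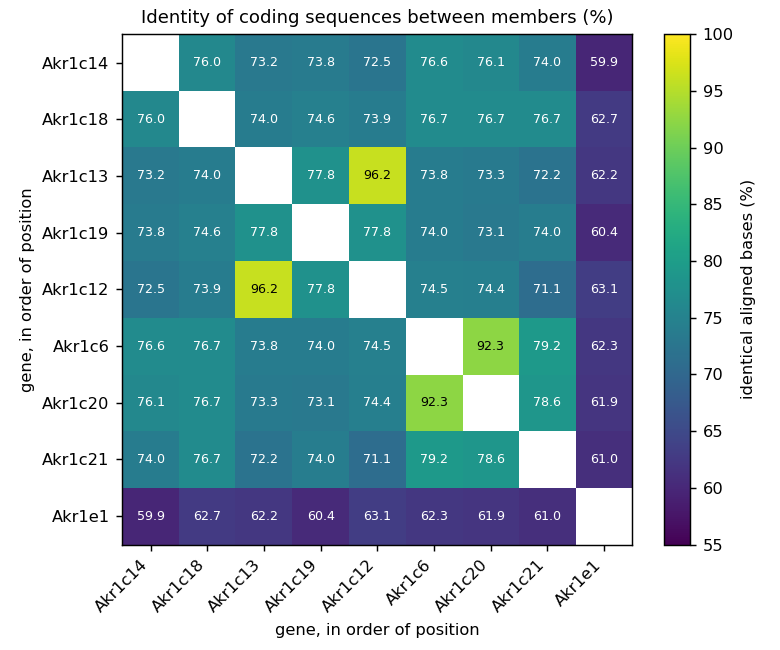
Percent identity of aligned coding bases for each pair of the 9 members, in order of position on chromosome 13; colour and printed number give the same value. Akr1c13 with Akr1c12 (96.2%) and Akr1c6 with Akr1c20 (92.3%) stand out from pairs of Akr1c genes at 71.1% to 79.2%, and Akr1e1 lies at 59.9% to 63.1% to all others.

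The sequences in front of the genes are shown because Akr1c13 and Akr1c12 were also alike there, and that of Akr1c19 is printed beside them. RefSeq promoter windows (GRCm38.p6) were found for 8 of the 9 members, all but Akr1c20. The 250 bases before the annotated start of Akr1c13 (chr13:4190937-4191186, plus strand) were 95.5% identical to those of Akr1c12 (chr13:4279400-4279649, minus strand; 235 of 246 aligned bases). They were 64.4% identical to those of Akr1c19 (chr13:4233490-4233739, plus strand; 154 of 239). The other pairs had 48.0% to 61.1%, and the highest of these was Akr1c19 with Akr1c12. Capitals mark bases that differ from, or have no partner in, the Akr1c13 sequence.
Akr1c13: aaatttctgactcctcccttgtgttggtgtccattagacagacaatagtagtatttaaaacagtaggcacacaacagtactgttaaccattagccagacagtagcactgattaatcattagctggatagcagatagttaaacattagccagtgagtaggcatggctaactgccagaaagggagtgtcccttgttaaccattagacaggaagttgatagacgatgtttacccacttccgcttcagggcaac
Akr1c12: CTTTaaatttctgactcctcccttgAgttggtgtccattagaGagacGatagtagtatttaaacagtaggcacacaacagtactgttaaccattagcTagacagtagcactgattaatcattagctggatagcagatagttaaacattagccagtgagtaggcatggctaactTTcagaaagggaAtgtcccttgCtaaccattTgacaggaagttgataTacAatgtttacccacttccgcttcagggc
Akr1c19: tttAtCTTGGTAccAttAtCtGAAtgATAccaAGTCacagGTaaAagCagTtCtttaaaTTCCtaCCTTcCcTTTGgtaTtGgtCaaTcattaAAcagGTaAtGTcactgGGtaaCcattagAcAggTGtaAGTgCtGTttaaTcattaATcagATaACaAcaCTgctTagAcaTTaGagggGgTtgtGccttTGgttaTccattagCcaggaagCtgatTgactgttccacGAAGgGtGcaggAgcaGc

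A short repeat, CCATTAG, was noticed in these sequences after they were aligned. Searched on both strands, it occurred 3 times in the 250 bases before Akr1c13, 2 times each before Akr1c19 and Akr1c12, and 1 time before Akr1c21. It occurred at least once in 1.73% of 32851 windows of the same length. At least 2 copies were present in 9 windows, and 3 copies in 1 window, that of Akr1c13. The antioxidant response element, searched as TGACNNNGC on both strands, occurred in 10.2% of all windows and in none of the 8 members' windows. These matches describe letters only.

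Akr1c13, a reductase best known from stomach, liver and ileum (GRCm38, chr13:4191187-4205603, plus strand), was close to zero in control brain and was counted in every Pogz-deficient library. In control hippocampus its lowest, median and highest counts were 0, 2.5 and 4. In cKO+/- hippocampus they were 3, 6 and 11. In cKO-/- hippocampus the counts were 77, 71, 50, 29 and 83 in animals Sample_936, Sample_1219, Sample_1371, Sample_1379 and Sample_1385, and 232 in Sample_1160. No cKO-/- library overlapped the other groups, while control and cKO+/- overlapped. How many of all genes separate in this way in the hippocampus is not given. The mean level went from 0.0567 ± 0.0315 CPM in control (SD, n = 6) to 0.182 ± 0.0840 in cKO+/- (n = 6) and 2.20 ± 0.542 in cKO-/- (n = 5), or 2.82 ± 1.61 with Sample_1160 (n = 6).

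In the cerebellum Akr1c13 had 0, 2 and 5 counts in control as the lowest, median and highest, 10, 12.5 and 24 in cKO+/-, and 46, 79 and 100 in cKO-/-. Here the 3 genotypes did not overlap. Every cKO-/- library lay above every control for 2.14% of the 20443 genes with a count in the cerebellum. The share of genes that separate all 3 genotypes is not given. The mean level went from 0.0811 ± 0.0533 CPM in control to 0.466 ± 0.138 in cKO+/- and 2.91 ± 0.598 in cKO-/- (SD, n = 6 each). For reference, 3 counts in a library corresponded to 0.0649 to 0.172 CPM in the hippocampus and 0.0919 to 0.140 CPM in the cerebellum, so control levels of Akr1c13 lay at about that floor.

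The log2 fold change of Akr1c13 per Pogz allele lost was 2.94 (SE 0.201) in the hippocampus and 2.58 (SE 0.144) in the cerebellum, 3.12 (SE 0.237) with all 18 hippocampal libraries, and 2.85 (SE 0.205) in the 17 without the filter on low counts. The ratio of mean CPM between cKO-/- and control was 38.7 in the hippocampus and 35.9 in the cerebellum, each over 14 control counts in 6 libraries. These values chose the gene and are a description, with no test. With genotype as a factor, cKO+/- lay 1.51 (SE 0.441) above control on the log2 scale in the hippocampus and 2.46 (SE 0.363) in the cerebellum. On that scale cKO+/- lay 1.07 below the midpoint of control and cKO-/- in the hippocampus (estimate -1.07, SE 0.351) and 0.09 below it in the cerebellum (estimate -0.09, SE 0.383). The allele effect of Akr1c13 in the hippocampus minus that in the cerebellum was 0.35 (SE 0.278), and 0.58 (SE 0.325) with all 36 libraries.

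**Figure D2:**
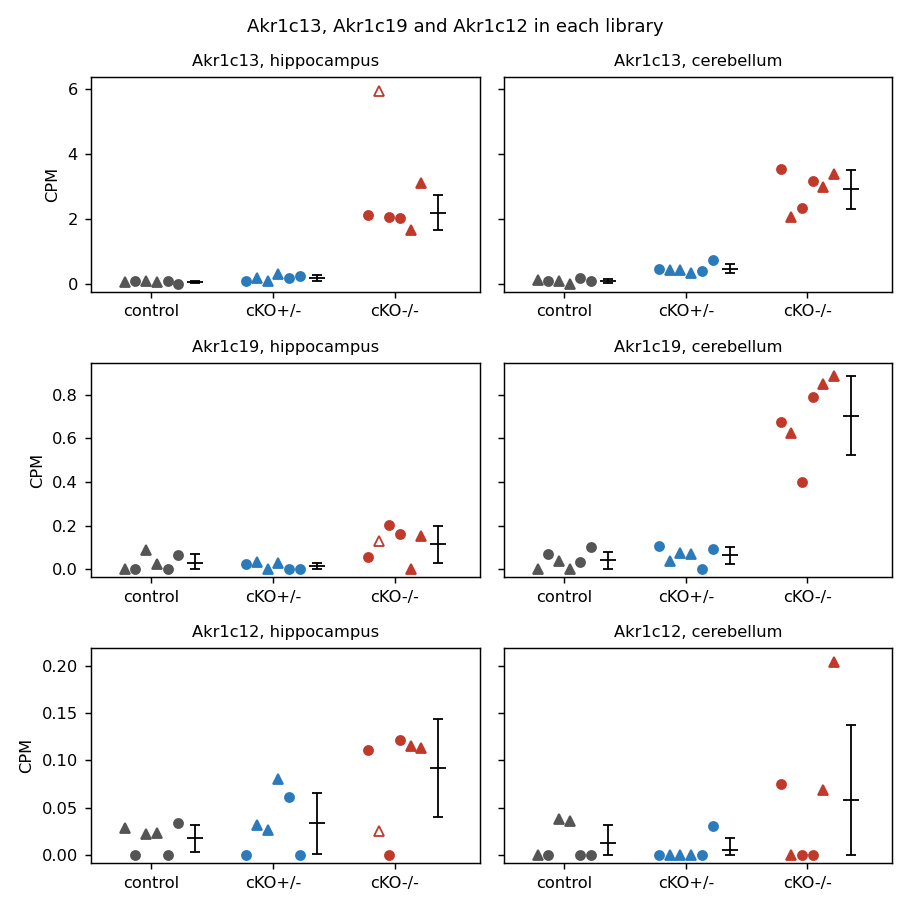
Level in CPM of Akr1c13, Akr1c19 and Akr1c12 in each library, by genotype and tissue; circles are males, triangles females, the open triangle is hippocampal Sample_1160, and bars show mean and SD without it, with the lower end stopped at 0. Akr1c13 was highest in cKO-/- in both tissues, Akr1c19 lay above all controls in the 6 cKO-/- cerebella (0.400 to 0.883 CPM), and Akr1c12 stayed at or below 0.204 CPM.

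Akr1c19, a reductase with broad substrates whose gene starts 42.6 kb downstream of the start of Akr1c13, was counted with it in cerebellum. The cerebellar counts ranged from 0 to 3 in the 6 controls (median 1) and from 0 to 3 in the 6 cKO+/- animals (median 2). In the 6 cKO-/- cerebella the lowest, median and highest counts were 12, 17.5 and 26. All cKO-/- libraries thus lay above all controls and above all cKO+/- libraries, and the latter groups overlapped. Such a separation of cKO-/- above control was found for 438 of the 20443 genes with a count in the cerebellum, or 2.14%. The means were 0.0403 ± 0.0402 CPM in control, 0.0633 ± 0.0393 in cKO+/- and 0.704 ± 0.179 in cKO-/- (SD, n = 6 each), a ratio of 17.5 between cKO-/- and control that rests on 7 control counts.

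Because Akr1c19 never reached the level of 1 CPM in 6 libraries that the main test required, it was tested in a fit over all 20443 genes with a count. Its log2 fold change per allele lost was 2.27 (SE 0.304, edgeR quasi-likelihood test, adjusted p = 7.16e-05), in a fit that called 9.27% of genes. It remained past the threshold when any 1 animal was left out (2.19 to 2.58, largest adjusted p = 0.00032) and with a covariate for animals outside the run of animal numbers that holds the controls (2.19, adjusted p = 0.001). That covariate was added after the data were seen. A covariate for animals outside the narrower control range of numbers was not fitted for Akr1c19. DESeq2 gave 2.39 (adjusted p = 1.83e-08). The difference between cKO+/- and control was 0.58 (SE 0.671, adjusted p = 0.758) and did not pass.

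In the hippocampus Akr1c19 stayed low. The control counts ranged from 0 to 4 (median 0.5) and the cKO+/- counts from 0 to 1 (median 0.5). The cKO-/- counts were 2, 7, 4, 0 and 4 in animals Sample_936, Sample_1219, Sample_1371, Sample_1379 and Sample_1385, and 5 in Sample_1160, so that the groups overlapped. The log2 fold change per allele lost was 1.08 (SE 0.454, adjusted p = 0.232, edgeR) in a fit that called 3.21% of 21089 genes, and 1.12 (adjusted p = 0.237, edgeR) with all 18 libraries. The allele effect in the hippocampus minus that in the cerebellum was -1.26 (SE 0.652, adjusted p = 0.449, edgeR interaction term over 21445 genes without the filter on low counts, of which 0.961% were called). The tests do not show that the allele effect on Akr1c19 differed between the tissues.

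Within the cKO-/- animals, the counts of Akr1c19 relative to those of Akr1c13 differed between the tissues in each animal. In the cerebellum there were 17.1 to 30.4 Akr1c19 counts per 100 Akr1c13 counts, with a median of 25.5. In the hippocampus there were 0, 2.60, 4.82, 8.0 and 9.86 in the 5 animals, and 2.16 in Sample_1160. The ratio was higher in the cerebellum in 6 of 6 animals. Summed over libraries, 112 Akr1c19 counts stood beside 467 Akr1c13 counts in the cerebellum and 17 beside 310 in the hippocampus. This pattern was noticed in the data and was not tested.

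**Figure D3:**
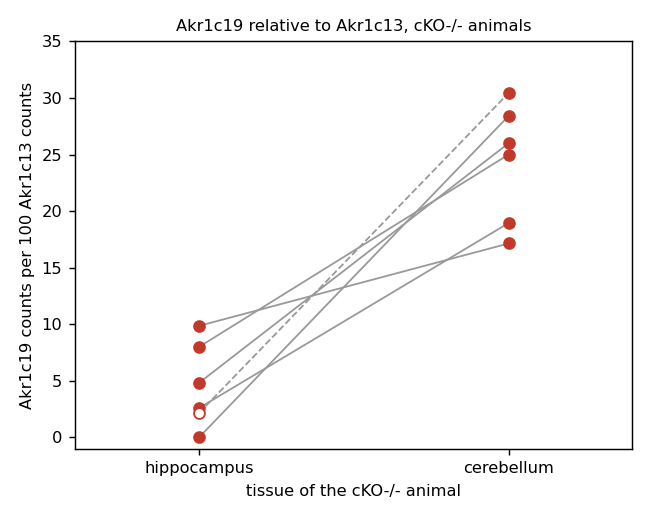
Akr1c19 counts per 100 Akr1c13 counts in the hippocampus and the cerebellum of each cKO-/- animal; a line joins the tissues of 1 animal, and the open point with the dashed line is Sample_1160. Every line rises, from 0 to 9.86 in the hippocampus to 17.1 to 30.4 in the cerebellum.

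Akr1c12, the near-identical partner of Akr1c13, kept single counts. Its counts were 0 or 1 in all 12 control libraries. In cKO-/- hippocampus they were 4, 0, 3, 2 and 3 in animals Sample_936, Sample_1219, Sample_1371, Sample_1379 and Sample_1385 and 1 in Sample_1160, and in cKO-/- cerebellum the lowest, median and highest were 0, 1 and 6. The cKO-/- group overlapped the controls in both tissues. Summed over the cKO-/- libraries, Akr1c12 had 12 counts beside 310 of Akr1c13 in the hippocampus (3.87%) and 10 beside 467 in the cerebellum (2.14%). With the counts of both genes added together, the log2 fold change per allele lost was 2.74 (SE 0.186) in the hippocampus and 2.52 (SE 0.130) in the cerebellum, again with no test. Since the genes share 33.5% and 32.4% of their read-length windows, no separate change is read from the few Akr1c12 counts.

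Akr1c14, a hydroxysteroid dehydrogenase that makes allopregnanolone, was counted in every library. In the hippocampus its lowest, median and highest levels were 0.780, 1.12 and 1.58 CPM in control and 1.17, 1.26 and 2.14 in cKO+/-, and the 5 cKO-/- animals had 1.04, 1.30, 1.53, 1.61 and 2.30. The groups overlapped. The log2 fold change per allele lost was 0.25 (SE 0.105, adjusted p = 0.188, edgeR) in the hippocampus and 0.10 (SE 0.0795, adjusted p = 0.406, edgeR) in the cerebellum, where the group means were 3.13 ± 0.660, 3.17 ± 0.499 and 3.60 ± 0.655 CPM (SD, n = 6 each) in control, cKO+/- and cKO-/-. Neither passed.

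Akr1c18, which inactivates progesterone and is best known from the ovary, was found in one tissue only. It had no count in any of the 18 cerebellar libraries. In the hippocampus its lowest, median and highest levels were 1.22, 2.36 and 2.97 CPM in control and 0.763, 1.62 and 1.93 in cKO+/-, and the 5 cKO-/- animals had 1.37, 1.46, 1.49, 1.88 and 2.14. Control overlapped both other groups. The log2 fold change per allele lost was -0.24 (SE 0.118, adjusted p = 0.270, edgeR) and did not pass, and it was -0.14 (SE 0.125, adjusted p = 0.541, edgeR) with all 18 libraries. With a covariate for animals whose numbers lay outside the range of the controls, the estimate was 0.091 (SE 0.196, adjusted p = 0.889, edgeR).

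Akr1e1, which reduces anhydrofructose, a sugar made from glycogen, had the highest level per length of all members. Its means in the hippocampus were 22.8 ± 2.14, 23.9 ± 1.77 and 24.4 ± 2.68 CPM in control, cKO+/- and cKO-/- (SD, n = 6, 6 and 5), with 39.5 in Sample_1160. In the cerebellum they were 30.7 ± 2.67, 30.5 ± 1.26 and 33.2 ± 4.01 CPM (n = 6 each). The log2 fold change per allele lost was 0.057 (SE 0.0299, adjusted p = 0.292, edgeR) in the hippocampus, or 0.11 (SE 0.0496, adjusted p = 0.267, unadjusted p = 0.0327) with all 18 libraries, and 0.055 (SE 0.0380, adjusted p = 0.349, edgeR) in the cerebellum. The groups overlapped in both tissues, and neither test passed.

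The last 3 members were at or near the floor. Akr1c21, a hydroxysteroid dehydrogenase best known from kidney, had 1 to 10 counts per library in the hippocampus and 1 to 13 in the cerebellum. Its log2 fold change per allele lost in the fits without a filter was -0.26 (SE 0.232, adjusted p = 0.612, edgeR) and -0.37 (SE 0.204, adjusted p = 0.275, edgeR). Akr1c6, a liver hydroxysteroid dehydrogenase, had 1 count in 1 of 36 libraries. Akr1c20 had 2 counts in 1 library and 1 count in another. Neither estimate for Akr1c21 passed. In no library did Akr1c6 or Akr1c20 reach the 12 to 26 counts that Akr1c19 had in cKO-/- cerebellum. Smaller changes of these 2 genes could not be read from so few counts.

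**Figure D4:**
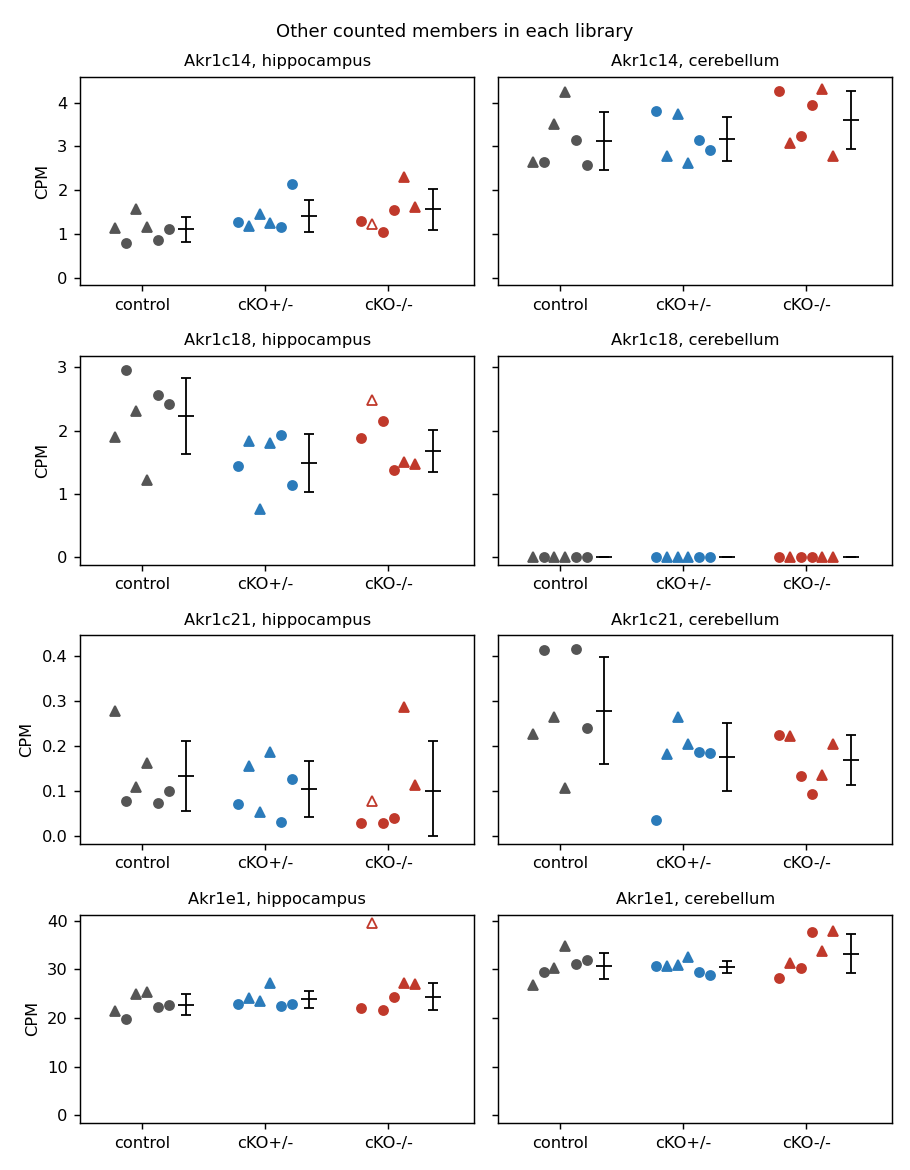
Level in CPM of Akr1c14, Akr1c18, Akr1c21 and Akr1e1 in each library, by genotype and tissue, with the symbols and bars of the plot of Akr1c13. The genotypes overlap in every panel, and Akr1c18 is at 0 in all 18 cerebellar libraries.

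Counted over the members, 4 of 9 passed the filter on low counts in the hippocampus and 3 of 9 in the cerebellum, Akr1c13 only through the cKO-/- libraries. In the hippocampus Akr1c13 exceeded 1 CPM in 6 libraries with Sample_1160 and in 5 without it, so that with the filter over the 17 libraries it was not tested and 0 members were called. At an FDR of 0.05, 1 member was called in each tissue, Akr1c13, against 4.44% of 14339 genes tested in the hippocampus and 13.7% of 14027 in the cerebellum. Nothing is read from these counts, since Akr1c13 chose the members. Without the filter, Akr1c19 was called as well in the cerebellum. That fit tested 7 members and called 2 of them, Akr1c13 included, and it called 9.27% of 20443 genes.

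Compared per kilobase of the exon length that the tables give, the order of the members changed with genotype. In control cerebellum the order was Akr1e1 (17.9 ± 1.56 CPM per kb, SD, n = 6), Akr1c14 (1.28 ± 0.270), Akr1c21 (0.230 ± 0.0984) and Akr1c13 (0.0658 ± 0.0433), and the libraries of the last 2 overlapped. In cKO-/- cerebellum Akr1c13 (2.37 ± 0.485) came next after Akr1e1 (19.4 ± 2.34), overlapping with Akr1c14 (1.47 ± 0.268), and Akr1c19 (0.567 ± 0.144) lay above Akr1c21 (0.140 ± 0.0458) without overlap. In control hippocampus Akr1e1 (13.3 ± 1.25) was followed by Akr1c18 (1.90 ± 0.516), Akr1c14 (0.451 ± 0.114) and Akr1c21 (0.110 ± 0.0643). In cKO-/- hippocampus Akr1c13 (1.78 ± 0.440, n = 5) stood second and overlapped with Akr1c18 (1.43 ± 0.281), and Akr1c19, Akr1c21 and Akr1c12 (0.0917, 0.0822 and 0.0746) overlapped with each other.

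The choice of members did not use the contrast between the tissues of the control animals. Over the 12 control libraries, scaled together, Akr1c14 was lower in hippocampus (1.14 ± 0.283 CPM) than in cerebellum (3.03 ± 0.632; n = 6 each), with a log2 difference of -1.42 (SE 0.157, adjusted p = 2.08e-06, edgeR), and no hippocampal library reached the lowest cerebellar one. Akr1e1 was lower in hippocampus as well, at 23.5 ± 2.17 against 29.8 ± 2.53 CPM (log2 difference -0.34, SE 0.0769, adjusted p = 0.00123, edgeR), with a small overlap. Akr1c18 had 2.30 ± 0.633 CPM in hippocampus and no count in cerebellum, at least 22.4-fold higher against the level of 3 counts per cerebellar library (0.103 CPM). It passed the filter through the hippocampus alone, so that it had to differ. The 3 members tested were all called, in a contrast that called 71.9% of 14224 genes. Akr1c21 was at 0.138 ± 0.0792 CPM in hippocampus and 0.269 ± 0.115 in cerebellum.

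Sex moved no member past the threshold. In the hippocampus 0.907% of genes were called for sex and in the cerebellum 0.0499%, and 0 of the 4 and 0 of the 3 members tested were among them. The nearest was Akr1e1 in the hippocampus, where males lay below females (log2 difference -0.18, SE 0.0479, adjusted p = 0.0812, unadjusted p = 0.00165, edgeR). In the controls its hippocampal level was 21.6 ± 1.60 CPM in 3 males and 23.9 ± 2.19 CPM in 3 females. Of the members tested, none was called for a departure of cKO+/- from the midpoint of control and cKO-/-. Those fits held 4 members in the hippocampus (0% of genes called) and 3 in the cerebellum (0.0214%). Akr1c19 lay under the filter and was not tested for such a departure. None of the 3 members tested over both tissues was called for a tissue difference in the allele effect (1.49% of 13587 genes).

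Of the genes around the cluster, 1 of 6 tested was called in the hippocampus and none of 7 in the cerebellum. Over all genes tested the shares called were 4.44% and 13.7%, so little can be read from so few neighbours. Within 2 Mb of either end of the Akr1c row 16 other genes were listed, of which 6 were tested in the hippocampus and 7 in the cerebellum. Klf6, a zinc finger transcription factor whose start lies 1670 kb from that of Akr1c13, rose in the hippocampus (0.18 per allele lost, SE 0.0447, adjusted p = 0.0264, edgeR), and was not called with all 18 libraries. In the cerebellum 0 of 7 were called by edgeR, and 1 of the 7 had an unadjusted p under 0.05. The median log2 fold change of the neighbours tested was 0.006 in the hippocampus and 0.023 in the cerebellum, against 0.002 and 0.001 over all genes tested. Akr1c18, the nearest member on the other side of Akr1c13, and Akr1c14 did not pass either, as given above.

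**Figure D5:**
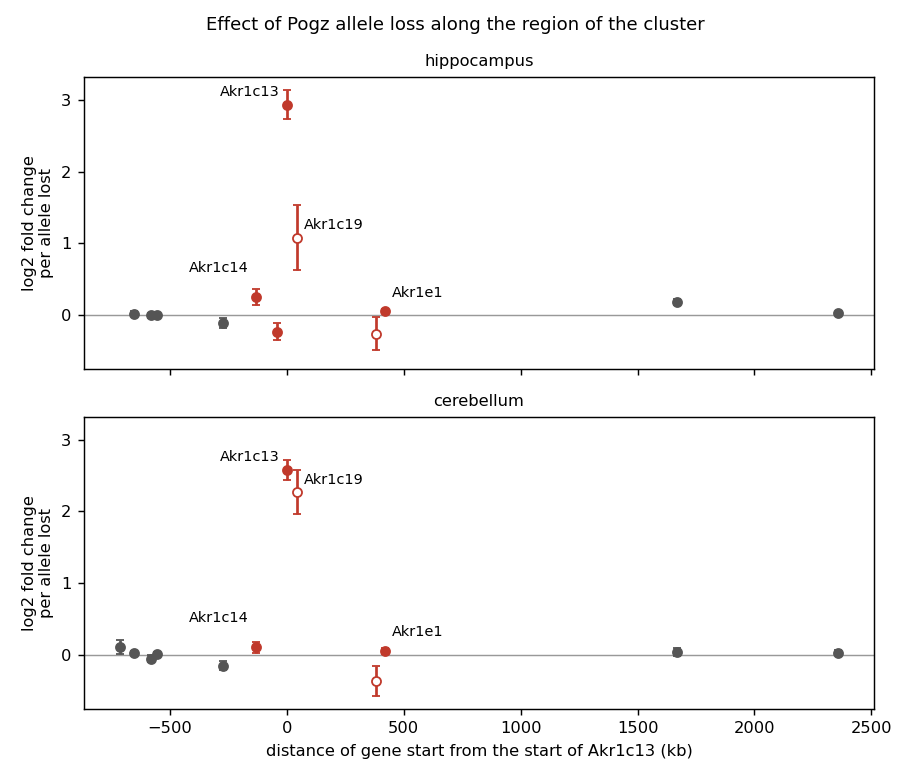
Log2 fold change per Pogz allele lost (points, with SE) against the distance in kb between a gene's start and that of Akr1c13, for members (red) and other genes within 2 Mb of the Akr1c row (grey); open points are Akr1c19 and Akr1c21 from the fits without a filter on low counts. Akr1c13 lies at 2.94 and 2.58, Akr1c19 at 1.08 and 2.27 in hippocampus and cerebellum, and the other genes between -0.37 and 0.25.

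Other aldo-keto reductases were read in the same fits, in which 2.09% of genes rose and 2.35% fell in the hippocampus, and 7.11% rose and 6.55% fell in the cerebellum. Of 11 genes outside the cluster, 6 were tested in the hippocampus and none was called. In the cerebellum 8 were tested, 2 rose and none fell. Akr1b7 and Akr1b8, both aldose reductase-like enzymes that reduce lipid aldehydes, went from 2.20 ± 0.317 to 4.45 ± 1.47 CPM (0.51 per allele lost, SE 0.113, adjusted p = 0.00762, edgeR) and from 0.882 ± 0.227 to 1.96 ± 0.346 CPM (0.58, SE 0.104, adjusted p = 0.0015, edgeR) between control and cKO-/- (n = 6 each). The median of the 8 was 0.14, against 0.001 over all genes tested.

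Of the genes of steroid synthesis and neurosteroid metabolism, 33 were found in the tables. In the hippocampus 20 were tested, none rose and 1 fell, Sult1a1, a sulfotransferase (from 7.69 ± 1.82 to 4.52 ± 0.523 CPM, adjusted p = 0.0159, edgeR; not called with all 18 libraries). In the cerebellum 21 were tested, 1 rose and 4 fell, where 7.11% of all genes tested rose and 6.55% fell. Cyp11a1, which makes pregnenolone from cholesterol, fell from 2.09 ± 0.538 to 1.09 ± 0.162 CPM (-0.46 per allele lost, SE 0.113, adjusted p = 0.0125, edgeR). Fdxr of the electron transfer chain to Cyp11a1, Hsd3b7 of bile acid synthesis and the sulfotransferase Sult2b1 fell by 0.20, 0.34 and 0.41 on the log2 scale per allele lost. Hsd17b7, of cholesterol synthesis, rose by 0.15. The list's median was -0.003 in the hippocampus and 0.017 in the cerebellum. Of 20 target genes of NRF2, a regulator of other AKR genes under oxidative stress, 18 were tested in each tissue. Slc7a11, the cystine transporter, rose in both (0.30 and 0.23 per allele lost, adjusted p = 0.0208 and 0.0362, edgeR) and Me1, the malic enzyme, in the hippocampus (0.14, adjusted p = 0.0179, edgeR). With all 18 hippocampal libraries Slc7a11 was not called there (0.25, adjusted p = 0.158, edgeR), while Me1 was (0.17, adjusted p = 0.0366, edgeR). None fell, and the medians were 0.004 and 0.029.

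The tissues in which Akr1c13 is best known were looked for by their markers. The summed level of 10 liver markers was 0.989 to 1.76 CPM in control and 1.05 to 1.55 in cKO-/- hippocampus (4.85 in Sample_1160), and 1.74 to 2.91 and 0.933 to 2.62 CPM in cerebellum. Alb, the most abundant liver transcript, had at most 9 counts in a library, with means of 0.0304 ± 0.0414 CPM in control and 0.113 ± 0.125 in cKO-/- hippocampus (SD, n = 6 and 5), and of 0 and 0.0237 ± 0.0300 in cerebellum (n = 6 each). Apoa2 made up most of the liver sum (0.757 ± 0.126 CPM in control hippocampus). For 10 stomach and intestine markers the sums were 1.20 to 1.98 and 0.724 to 1.27 CPM in hippocampus and 0.567 to 1.54 and 0.299 to 0.698 in cerebellum, and Gkn2 had no count in any of the 36 libraries. The summed levels in cKO-/- did not exceed the highest control, apart from Sample_1160, although single liver markers such as Alb had higher means in cKO-/-. Of 10 markers of meninges and fibroblasts, 7 rose in the cerebellum (median 0.40 per allele lost, summed level 248 to 332 CPM in control and 322 to 648 in cKO-/-) and 1 in the hippocampus. Of 10 choroid plexus markers none was called, with sums of 21.5 to 30.0 and 23.6 to 3101 CPM in cerebellum and of 33.9 to 5021 and 28.4 to 5166 in hippocampus. Of 10 endothelial markers 4 rose in the hippocampus and 1 fell in the cerebellum, and of 10 oligodendrocyte markers 1 and 4 rose. Over all genes tested, 2.09% rose and 2.35% fell in the hippocampus, and 7.11% rose and 6.55% fell in the cerebellum. With all 18 hippocampal libraries 1 endothelial marker and 0 oligodendrocyte markers rose there (edgeR). Their part in the levels of Akr1c13 and Akr1c19 was not tested.

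The 5 genes whose pattern was most like that of Akr1c13 were sought over the 35 libraries of both tissues, among 13587 genes, by Pearson's correlation of log2 CPM centred on the control mean of each tissue. They were Dmp1 (r = 0.947), a matrix protein of bone and dentine, Klhl13 (0.923), a substrate adaptor of a ubiquitin ligase, Dach2 (0.908), a transcription factor, Gm364 (0.898) and Rps4l (0.895), a ribosomal protein S4 copy. Klhl13, Dach2 and Gm364 lie on the X chromosome, Dmp1 on chromosome 5 and Rps4l on chromosome 6. All libraries share the genotype groups: within genotype and tissue the same correlations were 0.29, 0.39, -0.10, 0.00034 and 0.12. Among the members, Akr1c14 (r = 0.318) and Akr1e1 (0.288) ranked 2678 and 3053 of these genes. The search required over 1 CPM in 6 or more libraries of each tissue. Akr1c19 and Akr1c18, among others, fell short of this and were not ranked.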

How the data were processed

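Poly(A) RNA of both tissues was made into TruSeq libraries and sequenced as 43 bp paired-end reads on a NextSeq instrument. The authors aligned the reads and counted them per gene with STAR (250a, per the submitters' notes). The deposited values are whole-number counts per gene without normalization, 1 table per tissue. The methods name mm9, while the tables' coordinates match GRCm38, and use of strand and of reads with several matches is not stated in the sources used here. Genotype, sex and animal number come from the labels, and the tissue from the table's name. One RNA sample was left out by the study without being named. Leaving out the hippocampal library of Sample_1160 is the choice made here.

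Counts were analysed with edgeR 4.0.16 (R 4.3.3). Libraries were scaled with TMM, genes had to exceed 1 CPM in 6 or more of a tissue's 18 libraries (Sample_1160 included), and the legacy quasi-likelihood F-test was fitted with terms for sex and intact alleles (2, 1 or 0). P-values were adjusted over all genes tested (Benjamini-Hochberg). A log2 fold change is per allele lost. For Akr1c19, Akr1c12, Akr1c6, Akr1c20 and Akr1c21 the same fit was run over all genes with a count, added after the data were seen. On simulated counts, with 200 of 14339 (hippocampus) and 200 of 14027 genes (cerebellum) changed by 1 log2 unit per allele, the test called all 200 in each, and 11 and 6 unchanged genes. Only genes past the filter were simulated, so the fits without a filter, that of Akr1c19 included, were not checked in this way. Other fits were the control tissues, a tissue by allele interaction and genotype as a factor. DESeq2 1.42.0 and other settings were alternatives. The 6 control animals link the tissues: deviations of the same animal from the group means correlated at r = -0.035 to 0.422 (median 0.250), and a fit with the animal as a block was run. Floors of 3 counts cover counting error only, while the SDs and SEs also hold the spread between animals.

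Protein-coding transcripts (GENCODE vM1, mm9) were compared with Biopython 1.88, and promoter windows are RefSeq's (GRCm38.p6). Akr1c13 and Akr1c12 were picked by value or sequence, so their genotype values carry no test. The members and the gene lists were chosen with earlier results of these data known. Named are all members, Pogz, genes of the lists that passed an FDR of 0.05, the 5 genes most correlated with Akr1c13, and, chosen after their values were seen, Marcksl1-ps4, Alb, Apoa2 and Gkn2. Exon-level reads, protein sequences and quantitative PCR were not analysed here.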

Additional observations from a re-analysis of the deposited data

Results flagged for a closer look

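In groups of 5 or 6 libraries, 11 of 46 sets of values for the members and Pogz had 1 library beyond Dixon's limit for the gap to its nearest neighbour, where chance gives about 1 in 20, and low counts with ties make such gaps common. Sample_1160 was the highest of the 6 cKO-/- hippocampal libraries for Akr1c13 (5.95 CPM, next 3.11) and for Akr1e1 (39.5 CPM, next 27.2). In the same group Sample_1379 was the highest for Akr1c21 (0.287 CPM from 5 counts), and among the 5 libraries without Sample_1160, Sample_1219 was the lowest for Akr1c12 (0 CPM). Sample_1433 (cKO+/-) was the highest of its group for Akr1c13 in the cerebellum (0.735 CPM from 24 counts, next 0.468) and for Akr1c14 in the hippocampus (2.14 CPM, next 1.45). Sample_1385 (cKO-/-) was the highest for Akr1c12 in the cerebellum (0.204 CPM from 6 counts). Sample_933 (cKO+/-) was the lowest of its group in the cerebellum for Akr1c21 (0.0360 CPM from 1 count) and for Pogz (66.4 CPM, next 77.3). Sample_1176 (cKO+/-) was the highest for Akr1e1 in the hippocampus (27.3 CPM, next 24.1). Control Sample_1129 was the highest for Pogz in the cerebellum (130 CPM, next 101).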

How the results depend on the processing

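Akr1c13 was chosen by its rise, so its direction under the alternatives that tested it is a description and lends no support. On the log2 scale its values were 1.51 (cKO+/- against control) to 3.35 in the hippocampus and 2.44 to 2.61 in the cerebellum. With 1 animal left out they were 2.75 to 3.06 and 2.50 to 2.67. The number of genes called, against which the members were read, moved far more. In the hippocampus 636 genes were called, and 1056 by DESeq2, 246 with all 18 libraries, 627 with the filter and scaling over the 17 libraries (added after the data were seen), where Akr1c13 was not tested and 0 members were called, 30 with a covariate for animals outside the control range of numbers (Sample_1129 to Sample_1192), 68 with one for animals outside the run of numbers from Sample_1120 to Sample_1219 (added after the data were seen), 5 for cKO+/- against control, where 0 members were called, and 286 to 937 with 1 animal left out. The counts were under 636 by more than 1.5 times without control Sample_1190 (365), cKO-/- Sample_1371 (286) and cKO-/- Sample_1379 (305). In the cerebellum 1916 genes were called, and 134 and 308 with the covariates, 48 for cKO+/- against control, and 935 to 2572 with 1 animal left out: 1161 and 1013 without controls Sample_1129 and Sample_1190, and 1234 and 935 without cKO-/- Sample_1371 and Sample_1385. Without a filter on low counts 2 of 7 members were called in the cerebellum in place of 1 of 3, with 1895 of 20443 genes called. The causes were not tested. The number of genes called for sex in the hippocampus was 130, 6 with all 18 libraries, and 30 to 212 with 1 animal left out.

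With the animal as replicate block, all 3 members tested between control tissues were called as before, with 10377 genes in place of 10227. For a tissue difference in the allele effect, 203 genes were called over 35 libraries. Over the 34 libraries without either tissue of Sample_1160, 335 were called with the block and 363 without it (added after the data were seen), with 0 members called in these fits. The pairing comes from the labels, and it changed no member's call.

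Reversals concerned values far from the threshold: Akr1c18 in the hippocampus with the covariate for the control range (0.091), Akr1c19 in the hippocampus for cKO+/- against control (-0.88), Akr1e1 in the cerebellum for cKO+/- against control (-0.012), Akr1e1's departure from the midpoint in the hippocampus with all 18 libraries (-0.047) and its tissue difference with all 36 libraries (0.057), and, with 1 animal left out, sex for Akr1c13 in the hippocampus (-0.31 to 0.18) and for Akr1c14 in the cerebellum (-0.062 to 0.058). Control counts of 0 to 5 limit the size of the fold changes of Akr1c13, Akr1c19 and Akr1c12. Shared sequence limits the separation of Akr1c13 from Akr1c12.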
